A study of Homo sapiens with 27 samples.

Results

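Aminoacyl-tRNA synthetases are the enzymes that join each amino acid to its tRNA, and the mRNAs of 35 of them were read here among the 57905 genes measured in U937 cells. The members were chosen by symbol. The 19 cytosolic enzymes have names ending in 1 or are FARSA and FARSB, and the 16 mitochondrial enzymes have names ending in 2. All 35 symbols were matched to an identifier, and all 35 passed the filter on low expression at both times. U937 is a human myeloid leukaemia cell line. The series holds 27 RNA-seq samples, of which the 9 U937 libraries were used: 3 of control cells and 3 each of cells that received matrine for 30 min or for 24 h at 0.8 mg/ml. Matrine is a plant alkaloid, and the paper's vehicle was ddH2O. The same 3 control libraries served both comparisons. The culture time of the controls is not given in the sources used here, so that the effect of matrine and that of time in culture cannot be told apart at 24 h. The study examined which genes respond to matrine and the part of c-Myc in that response, and the question here is whether the mRNAs of the cytosolic and the mitochondrial enzymes moved alike.

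A synthetase loads its amino acid onto the matching tRNA at the cost of ATP, and the charged tRNA is then brought to the ribosome by an elongation factor. Human cells hold a cytosolic set and a mitochondrial set, both encoded in the nucleus, and for most amino acids the sets come from separate genes. KARS1 and GARS1 serve both compartments from a single gene each, and several cytosolic enzymes sit in a multi-synthetase complex held together by AIMP1, AIMP2 and EEF1E1. Many cytosolic synthetase genes are known targets of ATF4, a transcription factor of the amino acid response that binds a short element in their promoters. The synthetases fall into class I and class II by the fold of their catalytic domain.

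The total count per library lay between 17314931 and 21930018, and the lowest count of any member in any library was 108, for PARS2. FPKM, the authors' fragment count scaled to gene length and library depth, is the level printed below. c-Myc (MYC), the transcription factor that the study is about, stood at 204, 213 and 204 FPKM in the controls, at 49.1, 55.1 and 58.0 after 30 min and at 42.2, 46.1 and 43.1 after 24 h. The myeloid markers SPI1, CD33, LYZ, CSF3R, FCGR1A and CD4 were at 1 FPKM or more in all 9 libraries, and CD68 was below 1 in all of them. The erythroid gene HBG1 and the lymphoid genes CD3E, CD3D and MS4A1 were at 0 throughout. Summed over the 8 myeloid markers, the level was 414.85 to 419.41 FPKM in the controls and 382.29 to 388.47 after 24 h, when CSF3R and MPO were called higher. LYZ, which made up most of the sum, went from a mean of 292 FPKM in the controls to 244 after 24 h. SPI1 went from 67.6 to 56.0 FPKM, while CD4 rose from 28.6 to 43.7, so the markers shifted in both directions. The part of this shift in the results below was not tested. In bulk RNA, fewer cells of a type and less RNA per cell cannot be told apart.

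The promoter windows that bear on the results come from RefSeq on GRCh38.p14 and run from 250 bases before to 50 bases after a gene's start. Windows were matched for 30 of the 35 members, and AARS2, VARS2, LARS1, VARS1 and YARS1 had no entry. The amino acid response element was searched as TGATGNAA on both strands, where N is any base. It lay in the windows of 7 of 16 cytosolic members and of 1 of 14 mitochondrial members, against 2.42% of the 8584 tested genes with a window and 3.62% of all 35116 windows. The 8 matches are shown, 5′ to 3′ along the gene's own strand, because the cytosolic members that have one are compared below with those that have none, and the capitals mark the element.
AARS1 (chr16:70289670-70289709, minus strand): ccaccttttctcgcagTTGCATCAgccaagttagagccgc
CARS1 (chr11:3057402-3057441, minus strand): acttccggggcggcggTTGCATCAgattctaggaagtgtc
GARS1 (chr7:30594829-30594868, plus strand): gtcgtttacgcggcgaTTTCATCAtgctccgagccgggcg
IARS1 (chr9:92293687-92293726, minus strand): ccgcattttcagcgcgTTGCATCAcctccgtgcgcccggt
MARS1 (chr12:57488048-57488087, plus strand): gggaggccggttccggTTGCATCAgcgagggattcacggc
NARS1 (chr18:57621799-57621838, minus strand): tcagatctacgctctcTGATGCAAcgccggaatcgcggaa
TARS1 (chr5:33440951-33440990, plus strand): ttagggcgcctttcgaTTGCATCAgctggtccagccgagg
YARS2 (chr12:32756071-32756110, minus strand): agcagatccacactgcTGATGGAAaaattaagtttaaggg
Read on the strand that begins with TGATG, the letters were TGATGCAA in 6 of the 7 cytosolic members, with GARS1 as the exception, whose letters were TGATGAAA. In YARS2 they were TGATGGAA.

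The members with the largest called change in each direction at 24 h, MARS2 and WARS1, are shown next with part of their windows. In MARS2, which makes mitochondrial methionyl-tRNA, the capitals mark the core of the NRF1 motif (GCGCATGC, matched on both strands in overlapping positions) and an E-box (CACGTG, the motif that MYC and MAX proteins are known to bind). In WARS1, the cytosolic tryptophanyl enzyme, they mark an ETS motif (CCGGAAGT).
MARS2 (chr2:197705289-197705388, plus strand): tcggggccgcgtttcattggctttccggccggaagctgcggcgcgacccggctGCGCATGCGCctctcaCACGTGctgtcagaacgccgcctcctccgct
WARS1 (chr14:100376308-100376407, minus strand): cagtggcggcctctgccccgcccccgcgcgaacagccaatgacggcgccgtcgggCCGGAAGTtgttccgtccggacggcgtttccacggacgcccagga
The NRF1 core was in the windows of 2 of 14 mitochondrial members, MARS2 and YARS2, and of 0 of 16 cytosolic members, against 6.97% of the tested genes. The E-box was found in 3 of 14 mitochondrial members (CARS2, EARS2 and MARS2) and in 1 of 16 cytosolic members (IARS1), against 13.2% of the tested genes. The ETS motif was in 5 cytosolic and 3 mitochondrial members, against 11.3%. A match is a description of the letters and not a measured binding site, and no match says only that the letters are not in that window.

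HARS1 and HARS2, the cytosolic and mitochondrial histidyl enzymes, lie head to head on chromosome 5 with RefSeq starts 85 bases apart. In GENCODE 44 on GRCh38, HARS1 (ENSG00000170445) spans chr5:140673035-140691537 on the minus strand and HARS2 (ENSG00000112855) spans chr5:140691430-140699305 on the plus strand. The HARS2 window is shown because it holds the starts of both genes. The capitals mark 2 ETS motifs that both windows share, with the left match read on the opposite strand.
HARS2 (chr5:140691205-140691504, plus strand): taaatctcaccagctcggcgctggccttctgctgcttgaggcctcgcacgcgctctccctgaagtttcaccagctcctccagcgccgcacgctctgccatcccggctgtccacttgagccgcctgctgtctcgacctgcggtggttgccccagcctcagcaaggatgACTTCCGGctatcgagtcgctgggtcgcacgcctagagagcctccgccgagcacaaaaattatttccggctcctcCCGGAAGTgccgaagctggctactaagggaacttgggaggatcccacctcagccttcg

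In the control libraries the mean level of the cytosolic members ran from 8.31 FPKM for CARS1, which charges cysteine tRNA, to 166 FPKM for FARSA, the alpha subunit of the phenylalanyl enzyme, with a median of 41.2 FPKM over the 19 genes. The mitochondrial members ran from 3.46 FPKM for PARS2, the prolyl enzyme, to 60.0 FPKM for IARS2, the isoleucyl enzyme, with a median of 12.3 FPKM over the 16 genes. FPKM divides by a gene length, which the deposited counts and FPKM together put between 2152 bases for YARS2 and 10460 bases for CARS2, so that levels of different genes also carry the gene models behind them. Summed over the 19 cytosolic genes, the level was 918.8 ± 9.52 FPKM in the controls, 925.0 ± 6.86 after 30 min and 801.2 ± 2.72 after 24 h (mean ± SD, n = 3). The sum over the 16 mitochondrial genes was 255.2 ± 3.87, 249.2 ± 6.56 and 187.6 ± 1.40 FPKM in the same groups. At 24 h the mean cytosolic sum was thus at 87.2% and the mean mitochondrial sum at 73.5% of the control mean, and in both cases the 24 h libraries lay below all the controls. Abundant genes weigh most in these sums. From the controls to 24 h the mean of FARSA went from 166 to 103 FPKM. The means of IARS2 and MARS2 went from 60.0 to 44.5 and from 33.5 to 15.05 FPKM. The 24 h libraries of 7 of the 19 cytosolic genes and 1 of the 16 mitochondrial genes lay above all the controls, against 38.7% of all genes tested. The sums were not tested.

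**Figure D1:**
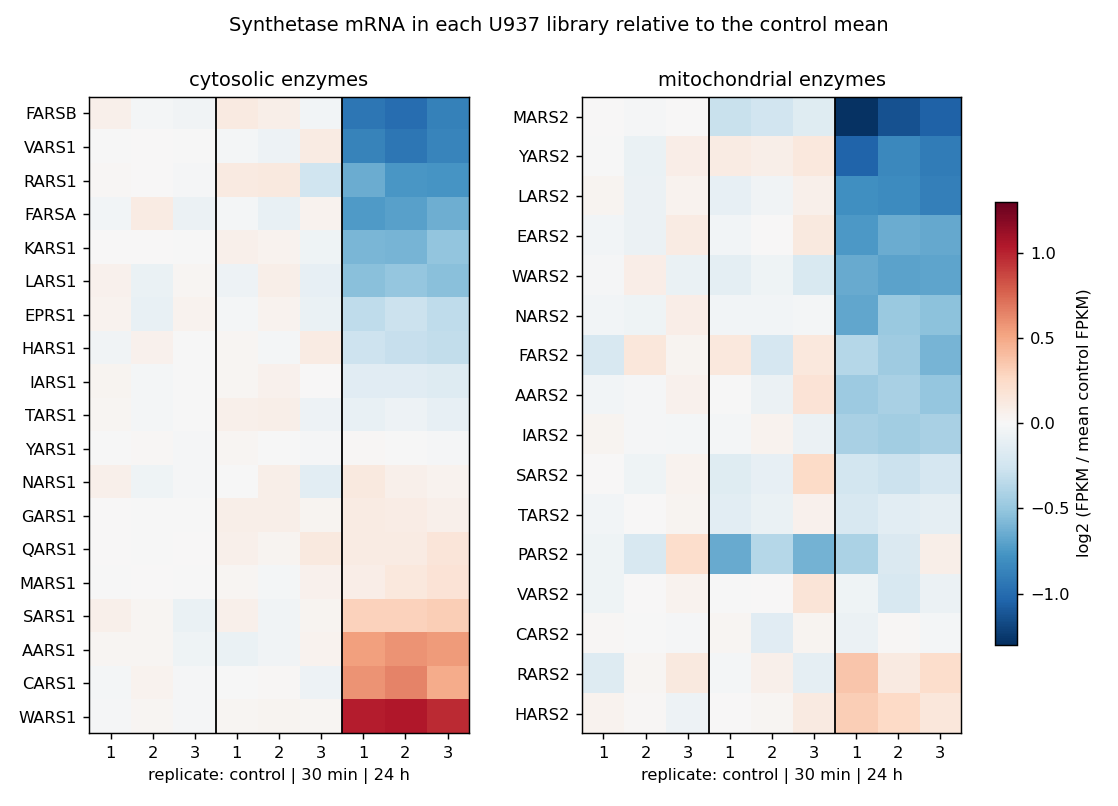
Each row is a synthetase and each column a library, 3 per group, and the colour gives log2 of the FPKM over the mean control FPKM of that gene. The 30 min columns are mostly pale, with PARS2 and MARS2 blue in all 3 libraries, while the 24 h columns run from dark blue for MARS2 to dark red for WARS1.

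After 30 min of matrine, 0 of the 35 synthetases were called by edgeR's quasi-likelihood test. A gene was called at an adjusted p below 0.05 (Benjamini-Hochberg over all genes tested) and a fold change of at least 1.5, and 0.544% of the 11587 genes tested were called lower and 0.0949% higher. DESeq2 and limma also called 0 members. Without the fold threshold the count was again 0, where 1.33% of all genes were lower and 0.293% higher. At an unadjusted p below 0.05 there were 2 of 35 members (5.71%), PARS2 and MARS2, against 11.1% of all genes tested. The log2 fold changes of the 19 cytosolic genes lay between -0.018 and 0.087, with a median of 0.030, and those of the 16 mitochondrial genes between -0.53 and 0.12, with a median of -0.0076.

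MARS2 stood at 33.7, 33.3 and 33.6 FPKM in the controls and at 27.5, 28.2 and 30.1 after 30 min, a log2 fold change of -0.22 ± 0.066 (SE) with an edgeR adjusted p of 0.118. PARS2, a gene of low level, stood at 3.34, 2.99 and 4.06 FPKM in the controls and at 2.20, 2.67 and 2.26 after 30 min, a log2 fold change of -0.53 ± 0.16 with an edgeR adjusted p of 0.108. The 30 min libraries of these genes lay below all the controls, but neither passed the test. GARS1 and QARS1, which charge glycine and glutamine tRNA, had all 30 min libraries above all controls, with log2 fold changes of 0.077 ± 0.049 and 0.087 ± 0.050. That made 2 of 35 members below and 2 above their controls, against 8.91% and 4.89% of all genes tested, so the share of members was near the background.

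After 24 h, 5 of 19 cytosolic and 6 of 16 mitochondrial synthetases (26.3% and 37.5%) were called lower by edgeR, where 11.2% of the 12035 genes tested were called lower. WARS1 alone (5.26%) was called higher among the cytosolic genes, and 0 of the mitochondrial genes were, where 15.1% of all genes were called higher; DESeq2 and limma likewise called 0 mitochondrial members higher, and 1 (HARS2) had a higher level at an unadjusted p below 0.05. On the adjusted p alone, 10 cytosolic genes fell and 4 rose, and 12 mitochondrial genes fell and 1 rose, against 31.8% lower and 31.5% higher over all genes. The median log2 fold change was -0.14 for the cytosolic genes, -0.50 for the mitochondrial genes and 0.0082 for all genes tested. The 24 h libraries lay below all the controls for 10 of 19 cytosolic and 12 of 16 mitochondrial genes, against 31.0% of all genes, and above them for 7 and 1, against 38.7%. No test of the difference between the compartments was made. With 3 libraries against 3, an exact permutation test of a single gene gives no p below 0.1, and the labels do not say that the libraries of a group came from separate cultures, so the p-values measure the spread between libraries, which may be technical.

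**Figure D2:**
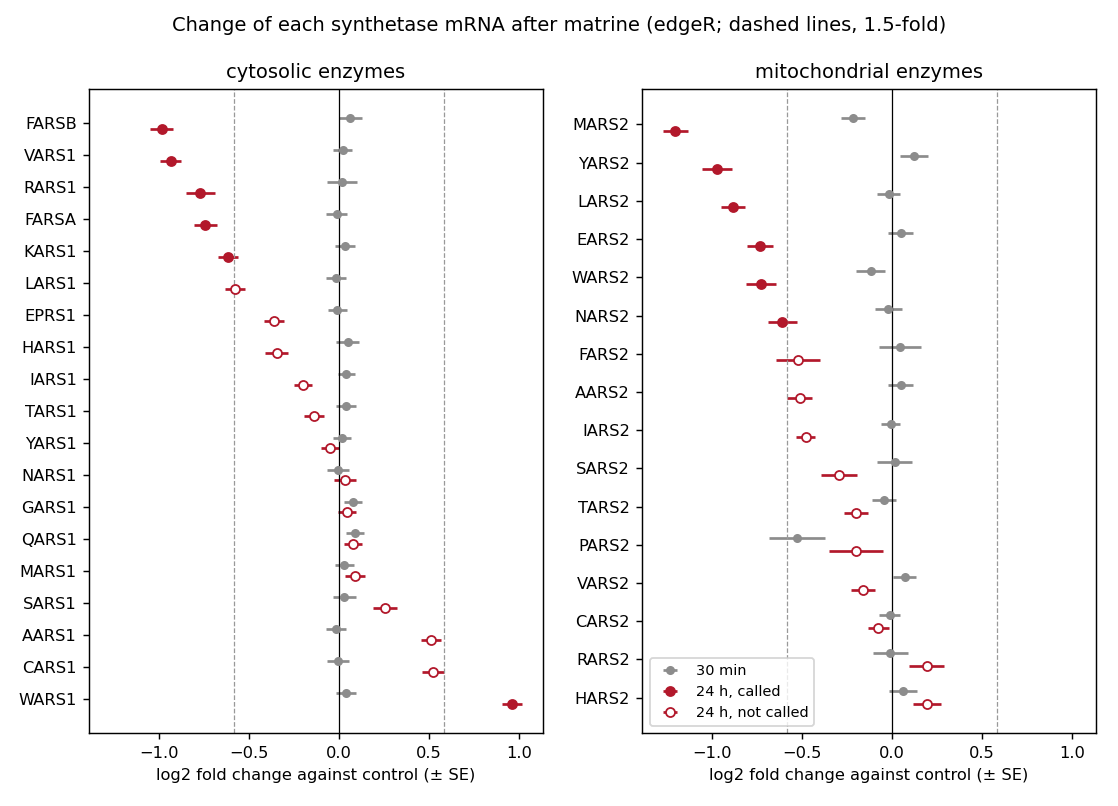
Points give the log2 fold change of each synthetase against control with its standard error, in grey for 30 min and in red for 24 h, filled where the gene was called, and dashed lines mark a 1.5-fold change. At 24 h the cytosolic genes spread from -0.98 for FARSB to 0.96 for WARS1, while the mitochondrial genes lie between -1.20 for MARS2 and 0.19 for HARS2.

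Both subunits of the cytosolic phenylalanyl enzyme fell. FARSB, the beta subunit (ENSG00000116120, chr2:222566899-222656092 on GRCh38), stood at 39.2, 36.8 and 36.4 FPKM in the controls, at 40.6, 39.4 and 36.4 after 30 min and at 19.6, 18.8 and 20.3 after 24 h. Its 24 h level was lower by a factor of 1.98 (log2 fold change -0.98 ± 0.064, edgeR adjusted p 2.94e-11), and its 24 h libraries did not overlap either other group. FARSA stood at 162, 179 and 158 FPKM in the controls and at 99.7, 102 and 107 after 24 h, a log2 fold change of -0.74 ± 0.062 (edgeR adjusted p 1.72e-09), and the same separation was seen. VARS1, the valyl enzyme (ENSG00000204394, chr6:31777518-31795752), was at 55.1, 55.8 and 55.5 FPKM in the controls and 30.3, 29.0 and 30.7 after 24 h. It was lower by a factor of 1.91 (log2 fold change -0.94 ± 0.057, edgeR adjusted p 1.12e-11), with all 24 h libraries far under the controls.

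The other cytosolic genes called lower belong to the multi-synthetase complex. RARS1, the arginyl enzyme, was at 29.4, 29.1 and 28.7 FPKM in the controls and 18.6, 17.2 and 17.1 after 24 h (log2 fold change -0.77 ± 0.083, edgeR adjusted p 6.6e-08). KARS1, the lysyl enzyme, was at 64.5, 64.5 and 64.4 FPKM in the controls and 42.6, 42.4 and 45.3 after 24 h (log2 fold change -0.62 ± 0.056, edgeR adjusted p 5.12e-09). The 24 h libraries of both lay below all controls, but the call of KARS1 lay close to the 1.5-fold threshold: its log2 fold change was -0.56 to -0.57, and the gene was not called, with the stricter FPKM filter, library totals alone or limma. LARS1, the leucyl enzyme, fell by just less than 1.5-fold, from 39.9, 36.1 and 38.9 FPKM in the controls to 26.2, 27.1 and 26.3 after 24 h (log2 fold change -0.58 ± 0.057, edgeR adjusted p 1.79e-08). It was called in 8 of the alternatives, among them 4 that leave out 1 library, with log2 fold changes of -0.63 without control replicate 2, -0.59 without 30 min replicate 1, -0.59 without 24 h replicate 2 and -0.59 without 24 h replicate 3.

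The remaining enzymes of the complex changed less. EPRS1, which joins both glutamate and proline to their tRNAs, fell from 85.4, 77.5 and 85.6 FPKM in the controls to 65.8, 68.3 and 65.8 after 24 h (log2 fold change -0.36 ± 0.054), and IARS1, the isoleucyl enzyme, from 48.2, 46.2 and 47.0 FPKM in the controls to 42.6, 42.7 and 41.9 after 24 h (-0.20 ± 0.049). MARS1 and QARS1 did not pass the test, with log2 fold changes of 0.088 ± 0.054 and 0.079 ± 0.051 and edgeR adjusted p of 0.159 and 0.184. Over the 7 enzymes of the complex, 5 fell on the adjusted p, against 31.8% of all genes, and 2 were called lower, against 11.2%, with a median log2 fold change of -0.36. The 3 scaffold proteins all fell on the adjusted p: the log2 fold change was -0.72 ± 0.071 for AIMP2, the only scaffold called, -0.42 ± 0.069 for AIMP1 and -0.39 ± 0.096 for EEF1E1. AIMP2 was at 46.9, 50.3 and 43.7 FPKM in the controls and 29.2, 28.2 and 31.0 after 24 h, without overlap.

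WARS1, the tryptophanyl enzyme (ENSG00000140105, chr14:100333790-100376805), was the synthetase that rose most. It was at 13.1, 13.5 and 13.1 FPKM in the controls, 13.4, 13.6 and 13.5 after 30 min and 26.9, 27.1 and 25.8 after 24 h. The 24 h level was 1.95-fold the control level (log2 fold change 0.96 ± 0.056, edgeR adjusted p 6.17e-12), and the 30 min libraries overlapped the controls. CARS1 was at 8.15, 8.56 and 8.22 FPKM in the controls and 12.5, 13.0 and 11.6 after 24 h (log2 fold change 0.52 ± 0.062, edgeR adjusted p 2.46e-07). AARS1, the alanyl enzyme, was at 42.0, 42.0 and 39.5 FPKM in the controls and 59.6, 61.7 and 60.5 after 24 h (log2 fold change 0.51 ± 0.056, edgeR adjusted p 9.16e-08). Both rose without overlap between the groups but by less than 1.5-fold. SARS1, the seryl enzyme, rose from 17.6, 17.2 and 15.9 FPKM in the controls to 20.8, 20.8 and 21.0 after 24 h (log2 fold change 0.26 ± 0.066, edgeR adjusted p 0.00188).

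The remaining 5 cytosolic genes were not called. HARS1 fell from 8.89, 9.51 and 9.13 FPKM in the controls to 7.60, 7.43 and 7.37 after 24 h (log2 fold change -0.35 ± 0.064). TARS1, the threonyl enzyme, was at 37.0, 35.6 and 36.1 FPKM in the controls and 33.9, 34.6 and 33.5 after 24 h (log2 fold change -0.14 ± 0.055, edgeR adjusted p 0.0316), but its edgeR adjusted p rose to 0.0861 without control replicate 1, and to 0.104, 0.0705 and 0.0663 without 24 h replicates 1, 2 and 3. YARS1, NARS1 and GARS1, which charge tyrosine, asparagine and glycine tRNA, did not pass the test, with log2 fold changes of -0.052 ± 0.050, 0.034 ± 0.059 and 0.045 ± 0.049. YARS1 was at 41.8, 42.7 and 41.7 FPKM in the controls and 42.4, 41.9 and 41.5 after 24 h, so that its groups overlapped, and the signs of these 3 changes turned under another filter. NARS1 was at -0.0041 without control replicate 2.

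**Figure D3:**
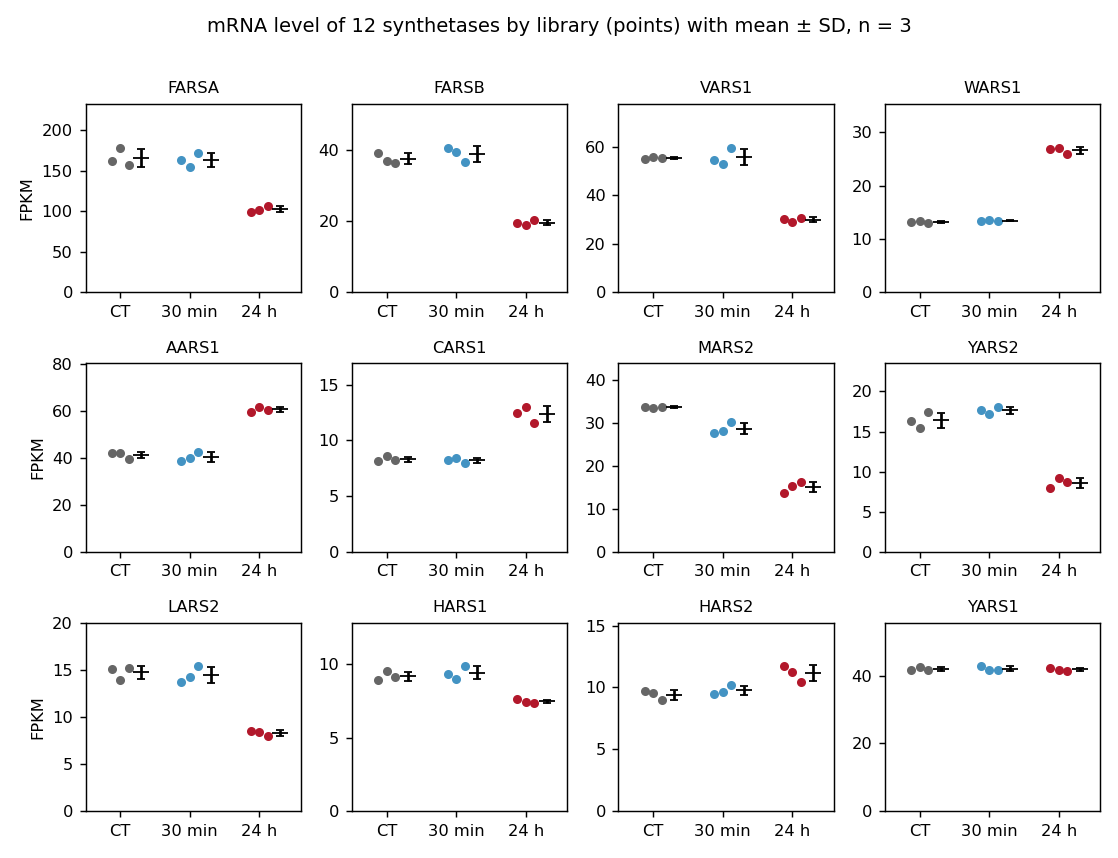
Each panel plots the FPKM of a synthetase in the 3 control (CT), 3 matrine 30 min and 3 matrine 24 h libraries as points, with the mean and SD of each group beside them and the axis starting at 0. FARSA, FARSB, VARS1, MARS2, YARS2, LARS2 and HARS1 sit lower at 24 h than in every control library, WARS1, AARS1, CARS1 and HARS2 sit higher, and YARS1 overlaps.

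Among the mitochondrial enzymes, MARS2 fell most. Mitochondrial methionyl-tRNA serves both the start and the extension of the chains that mitochondria make. MARS2 (ENSG00000247626, chr2:197705369-197708395) was at 33.7, 33.3 and 33.6 FPKM in the controls and 13.8, 15.3 and 16.2 after 24 h, lower by a factor of 2.30 (log2 fold change -1.20 ± 0.069, edgeR adjusted p 5.28e-12). Its 30 min libraries lay between the groups. YARS2, the tyrosyl enzyme (ENSG00000139131, chr12:32727490-32755897), was at 16.3, 15.4 and 17.4 FPKM in the controls, 17.7, 17.2 and 18.1 after 30 min and 7.96, 9.17 and 8.74 after 24 h (log2 fold change at 24 h -0.97 ± 0.083, edgeR adjusted p 2.04e-09). LARS2, the leucyl enzyme, was at 15.2, 13.98 and 15.2 FPKM in the controls and 8.52, 8.37 and 7.96 after 24 h (log2 fold change -0.88 ± 0.067, edgeR adjusted p 3.18e-10). In both genes the 24 h libraries lay far below all the others.

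The glutamyl enzyme EARS2 was at 10.9, 10.7 and 12.04 FPKM in the controls and 6.68, 7.19 and 7.05 after 24 h (log2 fold change -0.73 ± 0.071), and the tryptophanyl enzyme WARS2 was at 8.19, 8.80 and 7.81 FPKM in the controls and 5.25, 5.11 and 5.14 after 24 h (-0.73 ± 0.083). Both were called lower, without overlap. The asparaginyl enzyme NARS2 fell from 11.4, 11.3 and 12.4 FPKM in the controls to 7.32, 8.33 and 8.04 after 24 h (log2 fold change -0.61 ± 0.079, edgeR adjusted p 9.3e-07) and was called, but lay near the 1.5-fold threshold. Its log2 fold change was -0.57 without control replicate 3 and -0.55 without 24 h replicate 1, where it was not called, and it lost the call too with the stricter FPKM filter, library totals alone and limma (-0.51 to -0.56).

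A further 6 mitochondrial genes fell on the adjusted p by less than 1.5-fold. FARS2, the phenylalanyl enzyme, fell from 6.69, 8.54 and 7.91 FPKM in the controls to 5.98, 5.60 and 5.08 after 24 h (log2 fold change -0.52 ± 0.12), and was called at -0.63 without control replicate 1. AARS2, the alanyl enzyme, and IARS2, the isoleucyl enzyme, fell, with log2 fold changes of -0.51 ± 0.071 and -0.48 ± 0.053. IARS2, the most abundant of the 16, was at 61.3, 59.6 and 59.1 FPKM in the controls and 44.8, 43.9 and 44.9 after 24 h, without overlap. SARS2, TARS2 and VARS2, the seryl, threonyl and valyl enzymes, had log2 fold changes of -0.29 ± 0.10, -0.20 ± 0.068 and -0.16 ± 0.065 with edgeR adjusted p of 0.0142, 0.0138 and 0.0366, each of which depended on single libraries. The edgeR adjusted p was 0.0533 for SARS2 without 24 h replicate 2 and 0.0803 for TARS2 without 24 h replicate 1. For VARS2 it was 0.0985 without control replicate 3, 0.0506 without 24 h replicate 1 and 0.215 without 24 h replicate 2.

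CARS2, PARS2 and RARS2, the cysteinyl, prolyl and arginyl enzymes, did not pass the test, with log2 fold changes of -0.076 ± 0.060, -0.20 ± 0.15 and 0.19 ± 0.097 and edgeR adjusted p of 0.283, 0.261 and 0.0894. HARS2 was at 9.72, 9.54 and 8.96 FPKM in the controls and 11.7, 11.3 and 10.5 after 24 h, the only mitochondrial gene whose 24 h libraries lay above all controls. Its log2 fold change was 0.19 ± 0.077 with an edgeR adjusted p of 0.0317, which rose to 0.0527, 0.0538 and 0.144 without control replicates 1, 2 and 3, to 0.0524 without 30 min replicate 1, and to 0.124 and 0.0778 without 24 h replicates 1 and 2.

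For 14 amino acids both compartments had a member, giving 15 pairs because FARSA and FARSB were each set against FARS2. The ratio of the cytosolic to the mitochondrial FPKM was taken within each library on the log2 scale, and in 11 of the 15 pairs the cytosolic enzyme had the higher control level. After 24 h the ratio lay above all controls in 9 pairs and below all controls in 4, and it overlapped in 2 (FARSA to FARS2 and TARS1 to TARS2). The ratio of a pair was a description, and the share over all pairs of tested genes was not computed. After 30 min it lay above the controls in 2 pairs, MARS1 to MARS2 and WARS1 to WARS2, and overlapped in 13.

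The pair for tryptophan moved furthest apart, with a log2 ratio of 0.68 ± 0.064 in the controls and 2.36 ± 0.040 after 24 h (mean ± SD, n = 3), as WARS1 rose and WARS2 fell. For methionine the ratio went from -0.14 ± 0.012, with the mitochondrial enzyme slightly ahead, to 1.15 ± 0.073, and here MARS2 fell while MARS1 did not pass the test. For alanine it went from 1.18 ± 0.10 to 2.20 ± 0.032, with AARS1 up and AARS2 down. The pairs for tyrosine (1.36 ± 0.10 to 2.28 ± 0.12) and asparagine (2.28 ± 0.11 to 2.93 ± 0.14) moved the same way through the mitochondrial enzyme. The ratios for cysteine, serine, leucine and isoleucine also lay above their controls at 24 h.

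The opposite direction was seen for arginine, valine and histidine and for FARSB. The ratio of RARS1 to RARS2 went from 1.93 ± 0.17 to 0.97 ± 0.073, and that of VARS1 to VARS2 from 2.10 ± 0.048 to 1.32 ± 0.041. In the head-to-head pair, the log2 ratio of HARS1 to HARS2 was -0.13, -0.0045 and 0.027 in the controls and -0.62, -0.60 and -0.50 after 24 h, so that genes whose starts share the window printed above moved in opposite directions, with the rise of HARS2 resting on single libraries as given above. The ratio of FARSB to FARS2 went from 2.29 ± 0.23 to 1.82 ± 0.16.

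**Figure D4:**
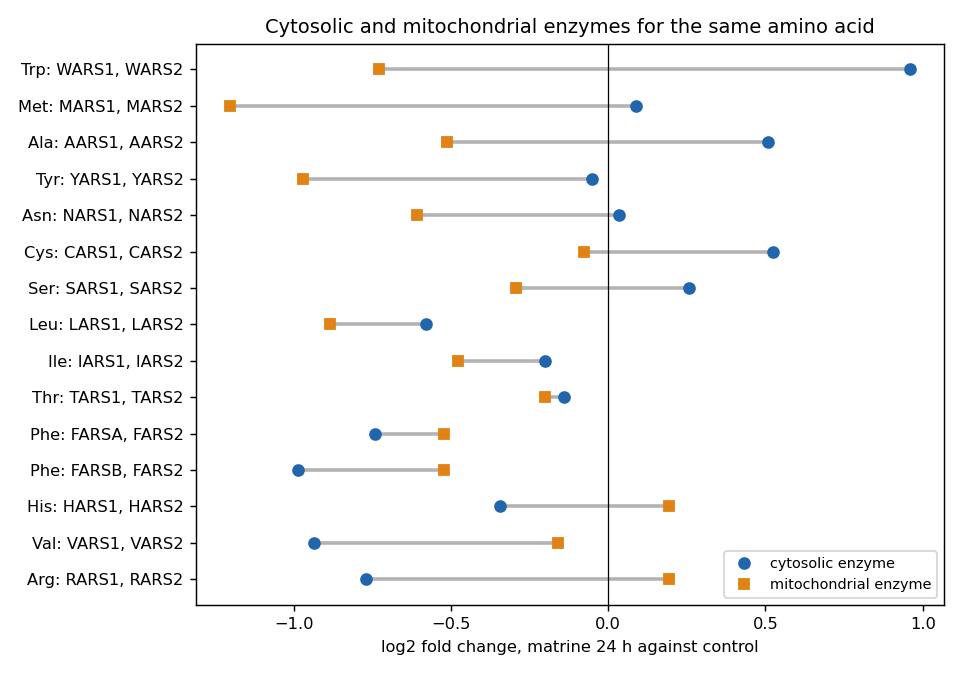
For each amino acid the log2 fold change of the cytosolic (circle) and mitochondrial (square) enzyme after 24 h of matrine is joined by a line. The circle lies to the right for 10 of the 15 pairs, from WARS1 and WARS2 at the top, and to the left for FARSA, FARSB, HARS1, VARS1 and RARS1.

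Split by catalytic class, 7 of 18 class I genes (38.9%) were called lower and 1 (5.56%) higher, against 11.2% and 15.1% of all genes, with a median log2 fold change of -0.34. Of the 16 class II genes, 4 (25.0%) were called lower and 0 higher, with a median of -0.25. On the adjusted p, 11 class I genes fell and 2 rose, and 10 class II genes fell and 3 rose. Over all genes the shares were 31.8% lower and 31.5% higher. KARS1 was counted in class II, and EPRS1, which carries an enzyme of each class, was in neither list.

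The 4 other genes of mitochondrial tRNA charging that were read all fell on the adjusted p, against 31.8% of all genes. Mitochondria make glutaminyl-tRNA by amidating a mischarged tRNA, and GATB, QRSL1 and GATC are the subunits of that amidotransferase, while MTFMT formylates the initiator methionyl-tRNA. GATB fell from 2.40, 2.87 and 2.40 FPKM in the controls to 1.25, 1.45 and 1.45 after 24 h (log2 fold change -0.94 ± 0.098). QRSL1 fell from 7.01, 6.12 and 7.18 FPKM in the controls to 4.44, 4.19 and 4.30 after 24 h (-0.70 ± 0.085). Both were called lower, where 11.2% of all genes were. MTFMT and GATC fell, with log2 fold changes of -0.55 ± 0.087 and -0.30 ± 0.090. Of 12 tested factors that process mitochondrial tRNA or carry out mitochondrial translation, 6 were called lower, against 11.2% of all genes, and 8 fell on the adjusted p, against 31.8%, with a median log2 fold change of -0.60. TRMT10C, a subunit of mitochondrial RNase P, fell from 40.2, 38.8 and 37.8 FPKM in the controls to 14.3, 15.9 and 15.4 after 24 h (log2 fold change -1.41 ± 0.087), and the elongation factors GFM1 and TSFM were called at -0.99 ± 0.066 and -0.90 ± 0.093.

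On the cytosolic side, 5 of 19 genes of tRNA processing and export were called lower, against 11.2% of all genes, with a median log2 fold change of -0.37. On the adjusted p, 13 fell and 1 rose, against 31.8% and 31.5%. POP1, POP7 and RPP40, all subunits of nuclear RNase P or its relative RNase MRP, were at -1.43 ± 0.10, -1.01 ± 0.093 and -0.99 ± 0.11. Of the 3 tested genes of elongation factor 1, which delivers charged tRNA to the ribosome, EEF1B2 fell (log2 fold change -0.20 ± 0.054), while EEF1A1 and EEF1D were at 0.10 ± 0.050 and -0.11 ± 0.066 and did not pass the test. EEF1G was not tested.

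Among 5 tested genes of proofreading and hydrolysis of charged tRNA, DTD1, which removes D-amino acids from tRNA, was called lower at -0.88 ± 0.070. That is 20.0% of the list, where 11.2% of all genes were called lower. On the adjusted p, 4 of the 5 fell and 1 rose, against 31.8% and 31.5% of all genes. AARSD1, DTD2 and PTRH2 fell, with log2 fold changes of -0.47 ± 0.11, -0.44 ± 0.12 and -0.52 ± 0.082, and PTRHD1 rose (0.41 ± 0.078). Selenocysteine is made on its tRNA from serine that SARS1 attaches. Of the 6 genes of that route, 2 fell and 3 rose on the adjusted p, all by less than 1.5-fold, against 31.8% and 31.5% of all genes. The share that fell was thus near that of all genes. SEPSECS, SECISBP2 and SEPHS2 rose, with log2 fold changes of 0.39 ± 0.089, 0.23 ± 0.081 and 0.17 ± 0.054, SEPHS1 and PSTK fell (-0.26 ± 0.061 and -0.22 ± 0.097), and EEFSEC was at -0.17 ± 0.090 without passing the test.

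Of 18 tested genes of the amino acid response, 9 were called higher at 24 h, against 15.1% of all genes, with a median log2 fold change of 0.55. On the adjusted p, 12 rose and 2 fell, against 31.5% and 31.8%. DDIT4, an inhibitor of mTORC1, was at 8.34, 10.4 and 9.04 FPKM in the controls and 122, 135 and 131 after 24 h (log2 fold change 3.76 ± 0.081). DDIT3, a transcription factor of the stress response, was at 5.96, 6.40 and 6.23 FPKM in the controls and 31.6, 35.7 and 32.3 after 24 h (2.37 ± 0.10), and SESN2, a leucine sensor, was at 4.01, 4.25 and 4.25 FPKM in the controls and 14.8, 15.0 and 16.3 after 24 h (1.84 ± 0.088). At 30 min 1 of 17 tested was called, against 0.544% of all genes called lower and 0.0949% higher. It was CEBPB, which was lower (-0.75 ± 0.093) and is named after its values were seen.

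The cytosolic synthetases were then read by the element printed above. In the 7 members whose promoter window held it, the log2 fold change at 24 h ran from -0.20 for IARS1 to 0.52 for CARS1, with a median of 0.045. edgeR, DESeq2 and limma called 0 of them, where edgeR called 11.2% of all genes tested lower and 15.1% higher. An unadjusted p below 0.05 in edgeR was seen in 4 of the 7, against 66.5% of all genes tested. In the 9 members with a window but no match, the log2 fold change ran from -0.98 for FARSB to 0.96 for WARS1, with a median of -0.36. Of these 9, edgeR called 4 lower and 1 higher, and 8 had an unadjusted p below 0.05. AARS1 and CARS1, which rose, hold the element, as do IARS1 and TARS1, which fell, and GARS1, MARS1 and NARS1, which did not pass the test, while SARS1 and WARS1 rose without a match in their windows. YARS2, the mitochondrial member with a match, was called lower. The split is a description of 16 genes and was not tested.

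**Figure D5:**
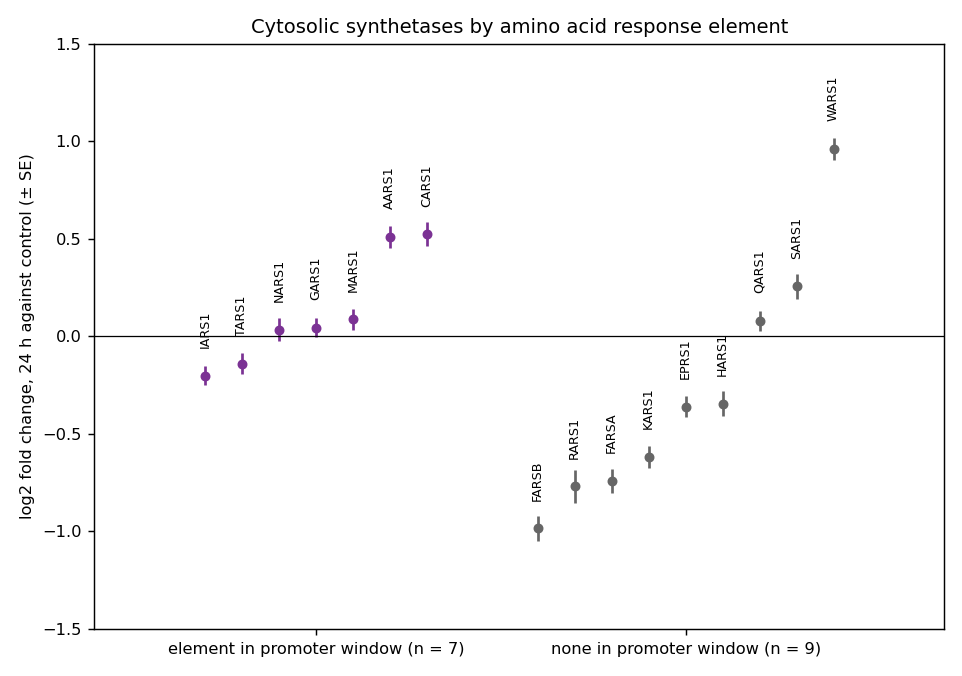
Points give the log2 fold change at 24 h with its standard error for the 16 cytosolic synthetases with a promoter window, split by a match to the amino acid response element. The 7 with a match lie between -0.20 and 0.52, and the 9 without run from -0.98 to 0.96.

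Several members overlap other genes, and the strand setting of the counting is not given in the sources used here, so that reads of overlapping exons may have been counted for the other gene, or for neither. By GENCODE 44, 11 of the 35 members share exon bases with a protein-coding gene. MARS1 shares 355 bases (5.05% of its exon bases) with DDIT3 on the opposite strand, and HARS1 shares 1090 bases (7.70%) with WDR55. WARS1 shares 287 bases (4.52%) with WDR25, and HARS1 and HARS2 share 108 bases. YARS2 shares 388 bases (18.1%) with a long non-coding gene on the opposite strand. The overlap was larger for SARS2, with 1492 bases (48.2%) in a gene on the same strand, and for VARS2, with 4073 bases (63.0%) in a long non-coding gene on the same strand, so that the values of these 2 genes are uncertain.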

How the data were processed

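RNA-seq was done by the study on U937 cells, 3 libraries per group. Per the labels' processing notes and the methods of the study, reads were trimmed with cutadapt 1.9.1, mapped with HISAT2 2.0.1 and counted per gene with HTSeq 0.6.1. The notes name GRCh37 and the methods hg38; the deposited files hold no coordinates, and those printed are GENCODE 44 on GRCh38 or RefSeq on GRCh38.p14. Strand setting, annotation release and treatment of multiply mapped reads are not given in the sources used here.

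The authors deposited a raw count and an FPKM for each of 57905 genes, of which 51996 were matched to a symbol. Counts were normalized with TMM (factors from the tested genes, library sizes from the whole table) and tested with edgeR 4.0.16 (R 4.3.3, glmQLFit and glmQLFTest). Each comparison had its own fit of all 9 libraries, over the genes tested in that comparison. Genes with a mean FPKM above 1 over the 6 libraries compared were tested, and a call required at least a 1.5-fold change with a Benjamini-Hochberg adjusted p under 0.05. Fold changes are treated over control, and each SE is the log2 value divided by the square root of the F statistic. The script was checked on simulated counts. All 9 libraries were kept. Replicate libraries differed beyond sampling noise, which does not show that they came from separate cultures. All 35 members are named, with every member of lists of 6 or fewer genes and up to 3 called members of longer lists. Members and lists were chosen with earlier results of these data known. Alternatives were the filter, fold threshold, normalization, DESeq2 1.42.0, limma 3.58.1 on log2(FPKM + 0.1) or log2(FPKM + 1), a replicate block, the libraries fitted and each library left out.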

Additional observations from a re-analysis of the deposited data

How the results depend on the processing

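Beside the values reported, 21 alternatives were run. The fold threshold moved the counts of members most. Without it, 10 cytosolic and 12 mitochondrial members were lower and 4 and 1 higher at 24 h. At a fold change of at least 2, 0 cytosolic members were called lower or higher and 1 mitochondrial member (MARS2) was called lower. Under the other alternatives the counts stayed within 1.5 times the main ones: 4 to 6 cytosolic and 5 to 7 mitochondrial members were called lower, 1 and 0 higher, and 0 at 30 min; leaving out each library in turn gave 5 to 6 and 5 to 7. Leaving out a single library decided calls of LARS1, FARS2 and NARS2, as given above. Small changes turned sign for GARS1 (-0.0222) and NARS1 (-0.0331) with no filter, for NARS1 (-0.0041) without control replicate 2 (leaving out each library gave NARS1 -0.0041 to 0.0598) and for YARS1 (0.002) at a mean FPKM above 5, where PARS2 was not tested. The adjusted p of TARS1, TARS2 and VARS2 rose above 0.05 with the stricter filter and with library totals alone, that of TARS1, SARS2 and VARS2 with limma, and that of HARS2 with no filter (0.313). In the other direction, MARS1, QARS1 and RARS2 passed 0.05 with the stricter filter, library totals alone and limma at either pseudocount (lowest adjusted p 0.0169, 0.0149 and 0.03), and GARS1 with limma at either pseudocount (lowest 0.0373), all with higher levels at 24 h. At 24 h these settings moved the log2 fold changes of all genes upward. The median shift was 0.0543 with the stricter filter, 0.0477 with library totals alone, and 0.0481 and 0.0452 with limma at pseudocounts of 0.1 and 1. The cause of the added passes was not tested. No scaling moved the median of all genes by more than 0.067 (log2), and 42.5% of all calls at 24 h were lower, against 37.0% with library totals alone. A further normalization, with library sizes summed over the tested genes, was chosen after seeing the data. Same-numbered libraries of different groups correlated at -0.26 to 0.13 in their deviations from the group means, so the numbers do not pair the libraries, and with the replicate block 5 cytosolic and 6 mitochondrial members were called lower, 1 and 0 higher, and 0 at 30 min. Depth limits the low genes, chiefly PARS2 with 108 to 187 counts per library.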
